A study of Mus musculus with 6 samples.

Results

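The 10 genes described here are muscle genes, most of them for proteins of the sarcomere or its attachments, and several are known to respond to stretch, load or injury: the ankyrin repeat genes Ankrd1, Ankrd2 and Ankrd23, the LIM domain genes Csrp3 and Lmcd1, the Xin repeat genes Xirp1 and Xirp2, the thin-filament gene Lmod2, and Mustn1 and Sbk2. They were taken by name from the 48795 genes of the count table, and all 10 were found and passed the filter on low counts, which left 13628 genes. The choice was made with the comparison of the genotypes known, so the difference between MERKO and control is given for these genes as a description. No p-value is given for any of them, and counts of calls appear only beside the share over all genes. The mice of interest were MERKO males, with the genotype muscle-specific Er_alpha-/-, in which the estrogen receptor gene Esr1 is targeted in muscle, and they were compared with wildtype males, called control here. All mice were C57BL/6 males aged 20 weeks, RNA came from quadriceps muscle, and each group had 3 libraries. The Cre line or promoter that drives the deletion is not given in the sources used here, nor is whether each library is a separate mouse, so the spread between libraries may be in part technical. Values are CPM, read counts relative to the TMM-scaled size of each library.

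Striated muscle senses mechanical load partly through titin, the giant elastic protein that spans each sarcomere from the Z-disc to the M-band. Ankrd1, Ankrd2 and Ankrd23 form the muscle ankyrin repeat protein family, which binds the elastic region of titin and can move to the nucleus. Csrp3, the muscle LIM protein, sits at the Z-disc, Xirp1 and Xirp2 bind actin at muscle attachment sites, and Lmod2 sets thin-filament length by adding actin at the pointed end. In mouse muscle Ankrd2 and Csrp3 are known as genes of slow-twitch fibres, and Ankrd1 is known as a target of the YAP and TAZ coactivators, which act through TEAD factors.

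The libraries held between 14935532 and 44282448 counts. Esr1, the targeted gene, stood at 6.75, 9.43 and 7.46 CPM in MERKO 1 to 3, against 25.1, 34.1 and 31.1 CPM in control 1 to 3, and no MERKO library reached the lowest control. Make-up differed between libraries of the same group. An rRNA gene model took 6.19%, 32.4% and 19.2% of reads in MERKO 1 to 3, against 11.1%, 27.7% and 0.0433% in control 1 to 3. Slow-fibre genes were high in 1 library of each group: the summed level of 8 such genes was 569, 51.4 and 57.6 CPM in MERKO 1 to 3, against 583, 57.9 and 64.2 CPM in control 1 to 3. The defining muscle genes were abundant in all libraries, with titin (Ttn) at 48447 CPM or more. Of the 8 heart markers, Nppa and Myl7 had no read in any library.

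Since Ankrd1, Mustn1 and Sbk2 were the 3 genes whose MERKO and control libraries did not overlap, the 250 bases before their RefSeq start are shown, with those of Ankrd2, the other ankyrin repeat gene of chromosome 19, for comparison. The sequences come from RefSeq on GRCm38.p6, read 5′ to 3′ on the strand of the gene, and 9 of the 10 genes had an entry, with 11 windows in all. Capitals mark the M-CAT motif, which TEAD factors bind, as CATTCC or its reverse complement. The windows are chr19:36119845-36120094 on the minus strand for Ankrd1, chr14:30879007-30879256 on the plus strand for Mustn1, chr7:4964407-4964656 on the minus strand for Sbk2, and chr19:42035777-42036026 on the plus strand for Ankrd2. The gene coordinates given further on are from GENCODE, whose model starts earlier than that of RefSeq by 255 bases in Ankrd1, 57 in Mustn1 and 27 in Ankrd2, and at the same base in Sbk2, so the Ankrd1 window lies inside the GENCODE gene.
Ankrd1: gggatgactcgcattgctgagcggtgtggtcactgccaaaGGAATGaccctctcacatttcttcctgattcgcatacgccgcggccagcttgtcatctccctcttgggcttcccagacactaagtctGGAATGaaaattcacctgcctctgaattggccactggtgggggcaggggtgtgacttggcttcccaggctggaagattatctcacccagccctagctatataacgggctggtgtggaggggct
Mustn1: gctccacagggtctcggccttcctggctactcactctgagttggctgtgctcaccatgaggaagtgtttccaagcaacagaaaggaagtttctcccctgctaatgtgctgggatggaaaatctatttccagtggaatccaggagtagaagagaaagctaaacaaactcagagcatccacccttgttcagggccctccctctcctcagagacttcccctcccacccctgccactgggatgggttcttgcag
Sbk2: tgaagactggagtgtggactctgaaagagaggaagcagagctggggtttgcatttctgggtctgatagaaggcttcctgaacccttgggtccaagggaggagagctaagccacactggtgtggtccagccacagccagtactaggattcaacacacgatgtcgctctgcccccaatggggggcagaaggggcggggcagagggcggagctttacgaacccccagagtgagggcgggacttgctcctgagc
Ankrd2: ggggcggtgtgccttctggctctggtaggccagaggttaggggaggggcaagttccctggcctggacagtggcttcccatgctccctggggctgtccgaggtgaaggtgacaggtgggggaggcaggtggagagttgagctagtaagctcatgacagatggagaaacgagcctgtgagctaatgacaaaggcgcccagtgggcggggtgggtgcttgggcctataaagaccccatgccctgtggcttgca

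The Ankrd1 window held 2 M-CAT matches, which began 210 and 123 bases before the start, while those of Mustn1, Sbk2 and Ankrd2 held none. M-CAT was found in 2 of the 11 windows, the other being 1 of the 2 windows of Ankrd23, and in 12.6% of all 32851 windows of this length. A CArG box, the site of serum response factor, was found in the window of Lmcd1 and in 1.47% of all windows. A MEF2 box was found in that of Xirp2 and in 2.92% of all windows. The full estrogen response element, GGTCA and TGACC with 3 bases between them, was in none of the 11 windows and in 0.0639% of all windows. Both strands were searched, no match overlapped one of another motif, and a match in letters is not a measured binding site.

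Ankrd1 (ENSMUSG00000024803.8, chromosome 19, 36111961 to 36120099, minus strand) encodes cardiac ankyrin repeat protein, which is scarce in resting limb muscle. It stood at 12.3, 10.02 and 7.22 CPM in MERKO 1 to 3, against 4.03, 2.21 and 3.20 CPM in control 1 to 3. Every MERKO library lay above every control library, and within a group the highest library held 1.71 times the lowest in MERKO and 1.83 times in control. The reads behind these values were 405, 119 and 150 in MERKO, against 96, 28 and 174 in control. The log2 fold change of MERKO against control was 1.62 (SE 0.26, 95% interval 1.03 to 2.21), with means of 9.85 ± 2.55 and 3.15 ± 0.91 CPM (SD, n = 3 each).

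Mustn1 (ENSMUSG00000042485.6, chromosome 14, 30879200 to 30881610, plus strand) encodes a small nuclear protein of muscle and skeleton. Its levels were 25.7, 21.5 and 23.1 CPM in MERKO 1 to 3, against 12.52, 8.84 and 13.6 CPM in control 1 to 3. The MERKO libraries were close to each other, with the highest 1.197 times the lowest, and all lay above control. The log2 fold change was 0.99 (SE 0.16, 95% interval 0.62 to 1.37). Sbk2 (ENSMUSG00000030433.15, chromosome 7, 4940512 to 4964406, minus strand) encodes a protein kinase of the SH3-binding-domain kinase family. It stood at 30.3, 24.7 and 26.7 CPM in MERKO 1 to 3, against 16.1, 11.7 and 9.47 CPM in control 1 to 3. Again the groups did not overlap, and the log2 fold change was 1.14 (SE 0.19, 95% interval 0.70 to 1.58). Without the composition factors the groups of Mustn1 overlapped, while those of Ankrd1 and Sbk2 did not.

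**Figure D1:**
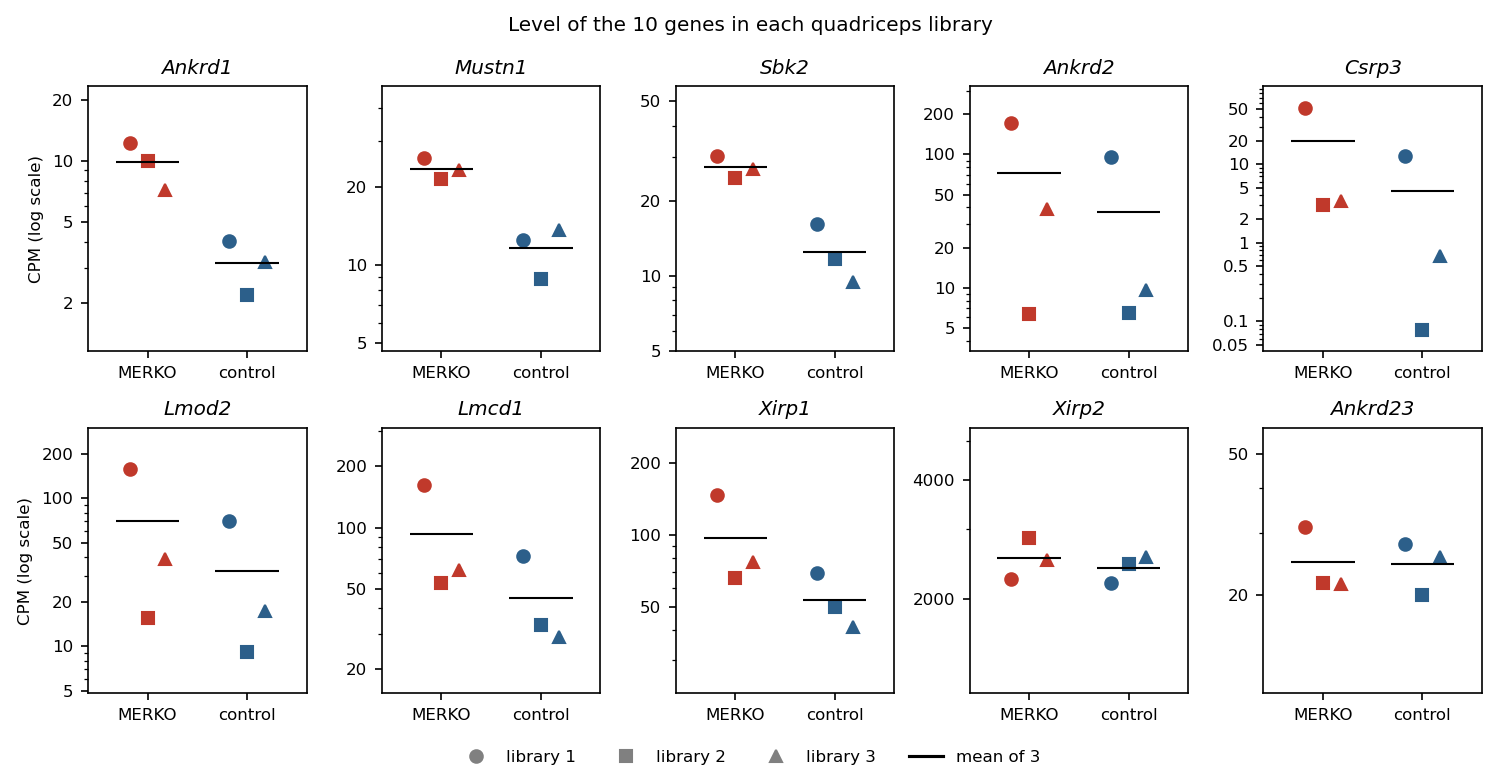
CPM of the 10 genes in each library, on a log axis of its own for each gene, with MERKO in red on the left, control in blue on the right, a symbol for each replicate number and the mean of 3 as a line. Ankrd1, Mustn1 and Sbk2 show separate groups, whereas Ankrd2, Csrp3 and Lmod2 are highest in MERKO 1 and control 1 and spread widely within both groups.

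Ankrd2, Csrp3 and Lmod2 behaved otherwise: the libraries of a group differed more than the groups did. Ankrd2 (ENSMUSG00000025172.2, chromosome 19, 42036000 to 42045110, plus strand) stood at 172, 6.31 and 38.9 CPM in MERKO 1 to 3, against 94.9, 6.47 and 9.69 CPM in control 1 to 3. MERKO 1 and control 1 were high, MERKO 3 was intermediate, and MERKO 2 was as low as control 2. Lmod2 (ENSMUSG00000029683.7, chromosome 6, 24597762 to 24605414, plus strand) stood at 157, 15.7 and 38.6 CPM in MERKO 1 to 3, against 70.7, 9.15 and 17.5 CPM in control 1 to 3, in the same order of libraries within MERKO. The highest library held 27.2 times the lowest in MERKO and 14.7 times in control for Ankrd2, and 10.01 times in MERKO and 7.72 times in control for Lmod2.

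Csrp3 (ENSMUSG00000030470.15, chromosome 7, 48830398 to 48848033, minus strand) stood at 52.0, 3.03 and 3.37 CPM in MERKO 1 to 3, against 12.8, 0.0789 and 0.680 CPM in control 1 to 3. The control 2 value is 1 read, and control 3 had 37 reads, so a ratio against control 2 is set by counting error. In each group the library with replicate number 1 was high, and the MERKO libraries 2 and 3 lay between control 1 and the other control libraries. The log2 fold changes of these 3 genes were 0.97 (SE 1.19) for Ankrd2, 2.13 (SE 1.38) for Csrp3 and 1.12 (SE 0.90) for Lmod2, and all 3 intervals included 0. Without MERKO 1 the signs turned, to -0.68 for Ankrd2, -0.51 for Csrp3 and -0.25 for Lmod2. Without control 1 the values were 3.14, 5.25 and 2.38. The value of Ankrd2 was also 1.51 without MERKO 2, 0.49 without control 2 and 0.51 without control 3, and that of Lmod2 was 0.70 without control 2.

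Within both groups the high library for these genes was the one with the high slow-fibre genes. Of the 10 genes, 8 were highest in library 1 of both groups, against 18.9% of the 13628 genes tested. The 8 include Ankrd1, Sbk2 and Ankrd23, whose libraries differed far less within a group. A spread of at least 4-fold within both groups was seen in Ankrd2, Csrp3 and Lmod2 and in 0.822% of genes tested. The slow myosin gene Myh7 stood at 160 CPM in MERKO 1, against 185 CPM in control 1, while MERKO 2 and 3 had 1.77 and 2.12 CPM, against 6.00 and 8.07 CPM in control 2 and 3. The summed slow-fibre level of MERKO 1 was close to that of control 1, whereas each of Ankrd2, Csrp3, Lmod2, Lmcd1 and Xirp1 was higher in MERKO 1 than in control 1. The slow-fibre sums of MERKO 2 and MERKO 3 were close, but Atp2a2 and Tpm3 made up most of both. The slow light chain gene Myl3 stood at 0.421 CPM in MERKO 2, which is 5 reads, against 5.15 CPM in MERKO 3. The slow-fibre markers Tnnt1 and Atp2a2 went the other way, at 2.10 and 31.0 CPM in MERKO 2, against 0.962 and 29.7 CPM in MERKO 3. Some other fibre genes had the library order of Ankrd2 within MERKO, but not within control. Myh1, the fast IIx myosin, stood at 10132, 2307 and 3526 CPM in MERKO 1 to 3, against 6083, 2021 and 701 CPM in control 1 to 3. Mb, the oxygen-binding myoglobin, stood at 2242, 297 and 788 CPM in MERKO 1 to 3, against 1621, 401 and 212 CPM in control 1 to 3. Both were higher in MERKO 1 than in control 1, and they were added after their values were seen. Within control both were higher in library 2 than in library 3, unlike Ankrd2. The summed level of the 10 fast-fibre markers, Myh1 among them, was lowest in library 1 of each group. It was 95366, 149590 and 140896 CPM in MERKO 1 to 3, against 121494, 144153 and 141521 CPM in control 1 to 3. These are values of single libraries, and the part of fibre make-up in the differences was not tested. In whole muscle, fewer fibres of a type and less RNA per fibre cannot be told apart.

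**Figure D2:**
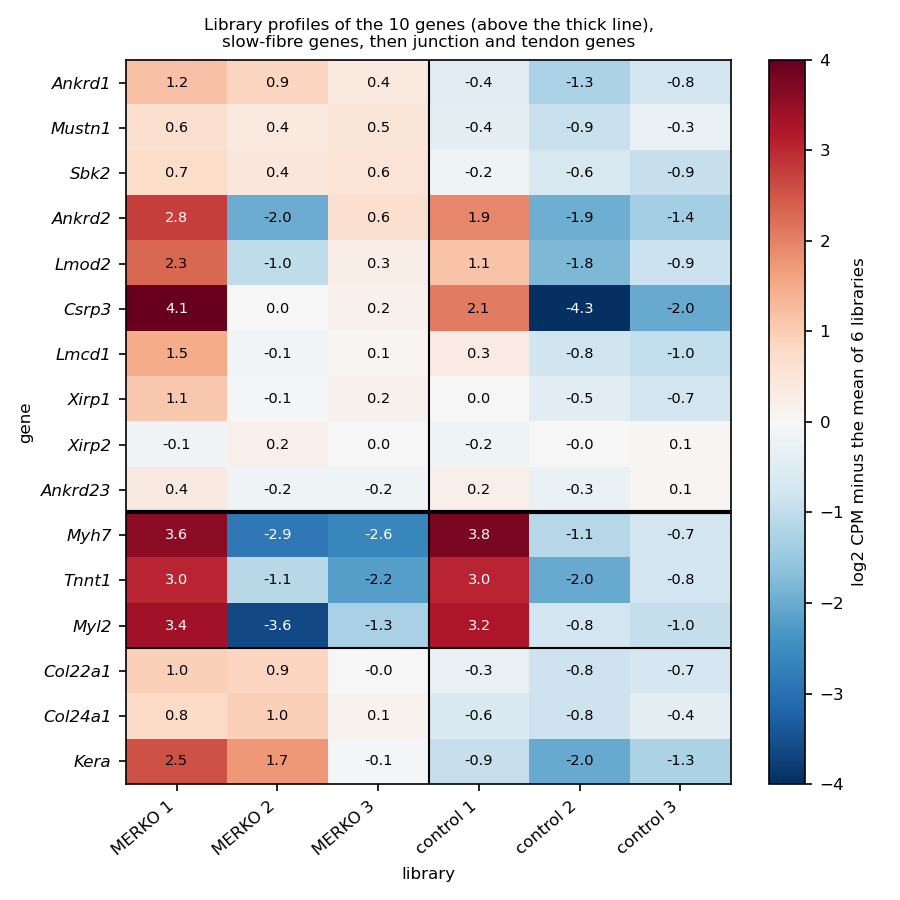
Log2 CPM of each gene in each library relative to its mean over the 6 libraries, with MERKO on the left and control on the right, for the 10 genes, 3 slow-fibre genes (Myh7, Tnnt1, Myl2), and Col22a1, Col24a1 and Kera of the myotendinous junction and tendon. Ankrd2, Lmod2 and Csrp3 are red in library 1 of both groups like the slow-fibre genes, and Ankrd1, Mustn1 and Sbk2 are red in all MERKO and blue in all control libraries.

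Lmcd1 and Xirp1 lay between these patterns. Lmcd1 (ENSMUSG00000057604.9, chromosome 6, 112273758 to 112330425, plus strand), a LIM and cysteine-rich cofactor of transcription, stood at 163, 53.5 and 61.5 CPM in MERKO 1 to 3, against 72.8, 33.2 and 28.9 CPM in control 1 to 3. MERKO 2 and 3 lay above control 2 and 3 but below control 1, so the groups overlapped. Its log2 fold change was 1.05 (SE 0.48), and 0.36 without MERKO 1 or 1.58 without control 1. Xirp1 (ENSMUSG00000079243.2, chromosome 9, 120013755 to 120023598, minus strand), an actin-binding repeat protein known as a marker of damaged muscle, stood at 147, 66.5 and 77.4 CPM in MERKO 1 to 3, against 69.8, 50.3 and 41.5 CPM in control 1 to 3. MERKO 2 was just below control 1, which was the one overlap. The log2 fold change was 0.85 (SE 0.31), and 0.42 without MERKO 1.

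Without MERKO 1 and control 1, the libraries with high slow-fibre genes, 6 of the 10 genes did not overlap between groups: Ankrd1, Csrp3, Lmcd1, Xirp1, Mustn1 and Sbk2. With 2 libraries a group the share of all genes tested that did not overlap was 38.1%. The log2 fold changes were then 1.59 for Ankrd1, 0.95 for Mustn1, 1.31 for Sbk2, 0.90 for Lmcd1, 0.66 for Xirp1, 2.67 for Csrp3 (SE 0.53), 1.48 for Ankrd2 (SE 0.60) and 1.00 for Lmod2 (SE 0.39). Those of Xirp2 and Ankrd23 were 0.10 and -0.10.

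Xirp2 and Ankrd23 differed least between the genotypes. Xirp2 (ENSMUSG00000027022.13, chromosome 2, 67446002 to 67526614, plus strand), the larger Xin repeat gene, stood at 2250, 2847 and 2508 CPM in MERKO 1 to 3, against 2191, 2443 and 2547 CPM in control 1 to 3. The groups overlapped, the highest library held 1.26 times the lowest in MERKO, and the log2 fold change was 0.08 (95% interval -0.30 to 0.47), or -0.06 without composition factors. Ankrd23 (ENSMUSG00000067653.12, chromosome 1, 36530188 to 36536883, minus strand), the diabetes-related ankyrin repeat gene, stood at 31.1, 21.5 and 21.4 CPM in MERKO 1 to 3, against 27.9, 20.0 and 25.7 CPM in control 1 to 3. The groups overlapped in Ankrd23 as well, with a log2 fold change of 0.01 (95% interval -0.40 to 0.42), whose sign differed between settings.

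The counting rules touch these genes. The gene model Gm42417 covers 78.2% of the exon bases of Ankrd23 on the same strand, and had no read in any library, so the Ankrd23 level depends on how reads of overlapping genes were assigned, which is not given in the sources used here. The antisense gene Gm13601 shares 1.40% of the exon bases of Xirp2, and had between 0 and 66 reads per library.

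Over the 10 genes, the log2 fold change was above 0 in 10, with a median of 1.02, where 52.1% of all genes tested were above 0 and their median was 0.01. The edgeR quasi-likelihood test called 0 of the 10 at an adjusted p under 0.05, and called 0.00734% of genes tested, which is Esr1 alone. That test called no gene without MERKO 1 or without MERKO 2, and 11 genes without MERKO 3. It called 3 of the 10 without composition factors, where it called 93 of the 13628 genes tested. It called 4 without a filter, where it called 140 of the 25904 genes then tested. At an unadjusted p under 0.05 it gave 4 of the 10, all higher in MERKO (7.04% of genes tested in either direction, 3.71% in that direction), limma-voom called 0 (0.00734%), and DESeq2 called 3 of the 9 to which it gave an adjusted p, again higher in MERKO (0.166% in either direction, 0.0939% in that one). Groups did not overlap in 3 of the 10, all higher in MERKO, against 13.3% of genes tested in either direction and 6.17% in that direction. Since the genes were chosen on this comparison, nothing is read from these counts.

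**Figure D3:**
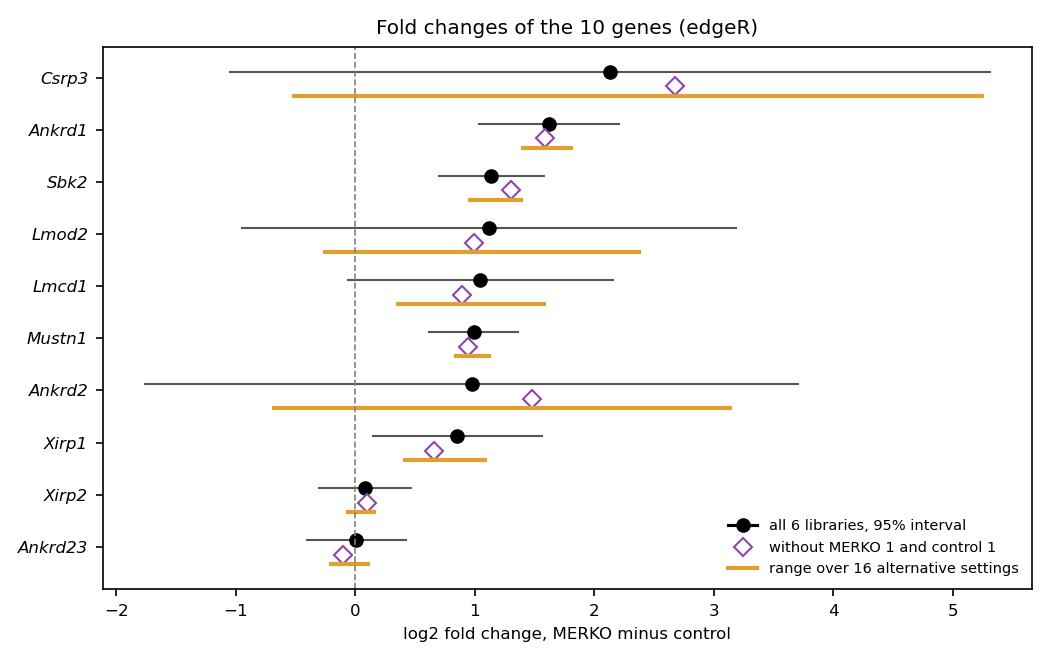
Log2 fold change of MERKO minus control for the 10 genes, with all 6 libraries and 95% intervals as black points, without MERKO 1 and control 1 as open diamonds, and the range over 16 alternative settings as orange bars. The bars of Ankrd1, Sbk2, Mustn1, Lmcd1 and Xirp1 stay above 0, and those of Csrp3, Ankrd2, Lmod2, Xirp2 and Ankrd23 cross it.

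Levels were compared between genes as CPM per kilobase of exon. In control, Xirp2 was highest, at 199.8 ± 15.3 CPM per kilobase (SD, n = 3), above 99.8% of all genes tested by CPM. Ankrd2 followed with 32.5 ± 44.05 CPM per kilobase, then Lmcd1 with 26.0 ± 14.0, Lmod2 with 16.4 ± 16.9, Mustn1 with 9.43 ± 2.03, Xirp1 with 9.22 ± 2.48 and Ankrd23 with 9.10 ± 1.4997 CPM per kilobase. The lowest were Sbk2 with 3.95 ± 1.08, Csrp3 with 1.69 ± 2.69 and Ankrd1 with 1.09 ± 0.32 CPM per kilobase. By mean CPM in control, 70.2% of genes tested were at or above Ankrd1, which had the lowest mean of the 10. Of the 9 neighbouring pairs in this order, the control libraries were separate only for Xirp2 above Ankrd2 and for Ankrd23 above Sbk2. In MERKO the mean was 3.41 ± 0.88 CPM per kilobase for Ankrd1, again the lowest mean of the 10. By library, Csrp3 was below Ankrd1 in MERKO 2 and 3 (1.13 and 1.26, against 3.47 and 2.501 CPM per kilobase for Ankrd1), and also in control 2 and 3.

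The ankyrin repeat family differed in make-up between libraries. Per exon length, Ankrd2 made up 90.5%, 32.6% and 76.6% of the summed level of Ankrd1, Ankrd2 and Ankrd23 in MERKO 1 to 3, against 87.7%, 41.0% and 44.5% in control 1 to 3. The share of Ankrd1 was 2.56%, 20.4% and 5.61% in MERKO 1 to 3, against 1.47%, 5.51% and 5.79% in control 1 to 3. In MERKO 2 the Ankrd2 level was 5.55 CPM per kilobase, against 5.69 in control 2, while Ankrd1 stood at 3.47 CPM per kilobase in MERKO 2, against 0.766 in control 2. Xirp2 made up between 88.2% and 95.4% of the summed Xin repeat level in MERKO, and between 93.9% and 96.8% in control.

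**Figure D4:**
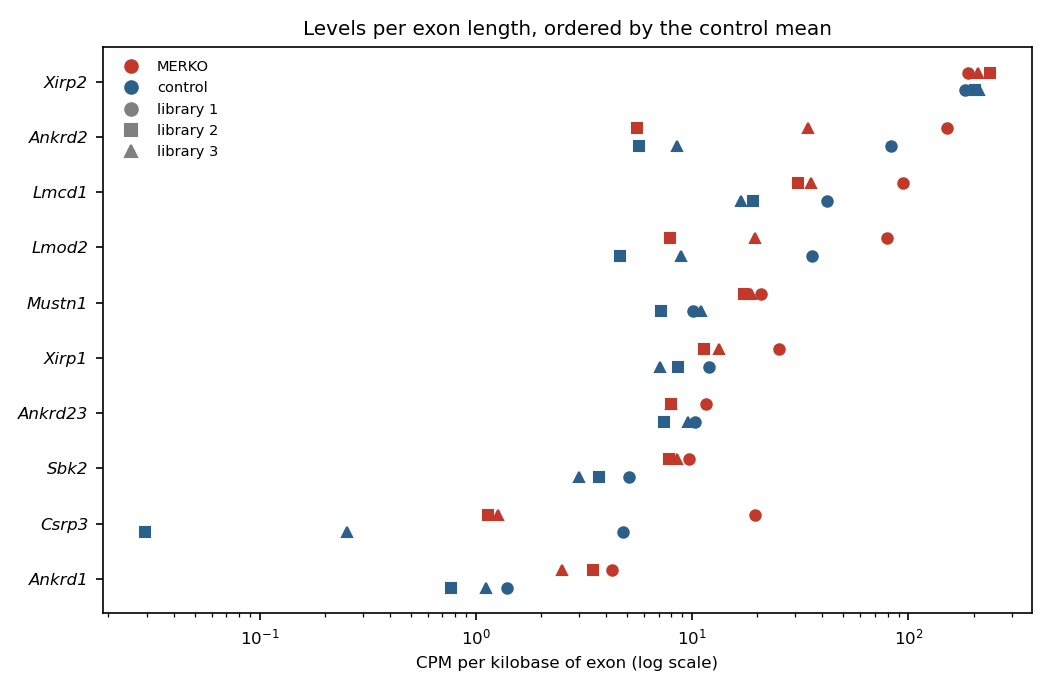
CPM per kilobase of exon of the 10 genes in each library on a log axis, ordered by the control mean, with MERKO in red above control in blue for each gene and a symbol for each replicate number. Xirp2 lies near 200 CPM per kilobase in all libraries, and Csrp3 extends from 19.5 in MERKO 1 to 0.0295 in control 2.

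The genes whose library profile was nearest to that of Ankrd1 were sought among 11391 named genes, by the root mean square difference of centred log2 CPM over the 6 libraries. They were Atf3, a stress-induced transcription factor (0.26), the zinc finger gene Zfp697 (0.26), Col22a1, a collagen of the myotendinous junction (0.27), Scube2 (0.27) and Dio2, the deiodinase that activates thyroid hormone (0.28). Atf3 stood at 5.47, 2.53 and 2.84 CPM in MERKO 1 to 3, against 1.39, 0.63 and 1.10 CPM in control 1 to 3. Col22a1 stood at 25.8, 23.8 and 13.0 CPM in MERKO 1 to 3, against 10.8, 7.34 and 8.27 CPM in control 1 to 3. In both, as in Ankrd1, every MERKO library was above every control library. Both were chosen for nearness to Ankrd1 over these libraries, so this follows largely from the choice. Dio2 was at 1.26 to 2.19 CPM in MERKO and 0.42 to 0.67 CPM in control. A search around Lmod2, added after its values were seen, gave Hspb7, a small heat shock protein of striated muscle (0.30), Esrrb (0.36), Smtnl1 (0.40), Zdhhc23 (0.46) and the LIM gene Fhl1 (0.48). Fhl1 stood at 557, 105 and 139 CPM in MERKO 1 to 3, against 309, 66.8 and 51.9 CPM in control 1 to 3. Its library 1 values were highest, which the choice by nearness to Lmod2 favours. Among the 10 genes the nearest pairs were Lmcd1 with Xirp1 (0.28) and Mustn1 with Sbk2 (0.31).

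Other genes of the same structures, their regulators, and markers of cell types and tissues were examined as 19 lists, in which 196 genes were tested. Of these, 0 passed the edgeR test over all genes (lowest adjusted p = 0.631, with 0.00734% of all genes tested called). At an unadjusted p under 0.05 edgeR gave 35 of the 196, 23 of them higher in MERKO, against 7.04% and 3.71% of all genes tested. Among these were 8 tendon, 6 adipocyte and 3 junction markers. The titin list gave 2, both lower, the Xin partner list 1, higher, and the thin-filament list 1 higher and 1 lower. DESeq2 called 4, namely Atf3, Col22a1, Col24a1 and Kera, against 0.166% of the genes to which it gave an adjusted p. Of the 30 partners of titin and the Z-disc, 14 were higher in MERKO and 16 lower (median log2 fold change -0.01). The lowest p belonged to Trim63, a ubiquitin ligase of the sarcomere, at 270.2 ± 85.8 CPM in MERKO, against 471 ± 131 CPM in control (a log2 fold change of -0.80, SE 0.26, adjusted p = 0.671, edgeR), and to Pdlim5, a Z-disc LIM protein (-0.32, SE 0.13, adjusted p = 0.687). Titin itself was at 74869, 147981 and 78963 CPM in MERKO 1 to 3, against 63185, 100735 and 48447 CPM in control 1 to 3, with overlapping groups. Of the 19 Xin partners and costamere genes, 14 were higher (median 0.16), with 1 at an unadjusted p under 0.05. The gene Flnc encodes filamin C, an actin crosslinker that binds Xin repeat proteins, and stood at 757 ± 212 CPM in MERKO, against 494 ± 121 CPM in control (a log2 fold change of 0.62, SE 0.24, adjusted p = 0.683, edgeR). Tln1, which encodes the adhesion protein talin, was at 114 ± 2.35 CPM in MERKO, against 96.9 ± 10.6 CPM in control (0.24, SE 0.11, adjusted p = 0.707).

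Thin-filament genes were higher in 6 of 14 (median -0.04). Tmod4, which caps the pointed end where leiomodins act, was at 265 ± 25.5 CPM in MERKO, against 339.7 ± 39.4 CPM in control (a log2 fold change of -0.36, SE 0.13, adjusted p = 0.680, edgeR), and Tpm2, a tropomyosin, was at 3546 ± 779.6 CPM in MERKO, against 2315 ± 565 CPM in control (0.62, SE 0.24, adjusted p = 0.683). Paralogs and relatives of the 10 genes were higher in 8 of 11 (median 0.25), with the lowest p in Sbk1 (0.47, SE 0.19, adjusted p = 0.683) and Ankrd33b (0.47, SE 0.20, adjusted p = 0.706). The close paralogs Lmod3 and Csrp1 had log2 fold changes of 0.24 and 0.19. Sbk3 was below the filter, with 29, 1 and 1 reads in MERKO 1 to 3, against 4, 0 and 0 reads in control 1 to 3.

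YAP, TAZ, TEAD and their targets were higher in 21 of 29 (median 0.18). Crim1, a transmembrane target, stood at 50.8 ± 5.74 CPM in MERKO, against 37.4 ± 3.08 CPM in control (a log2 fold change of 0.45, SE 0.11, adjusted p = 0.654, edgeR), and the TEAD cofactor Vgll4 at 13.9 ± 1.58 CPM in MERKO, against 22.1 ± 5.72 CPM in control (-0.67, SE 0.20, adjusted p = 0.654). The classical target Ccn2, named Ctgf before, was at 36.1, 12.2 and 11.98 CPM in MERKO 1 to 3, against 14.2, 7.73 and 8.51 CPM in control 1 to 3, and Ccn1, named Cyr61 before, was at 26.2, 14.6 and 28.5 CPM in MERKO 1 to 3, against 35.6, 26.7 and 33.5 CPM in control 1 to 3. Neither passed, and their log2 fold changes were 1.00 and -0.46. The genes of SRF, MRTF and their targets were higher in 12 of 16 (median 0.06), with the lowest p in Egr1 (0.82, SE 0.48, adjusted p = 0.715) and Cnn1 (0.88, SE 0.58, adjusted p = 0.744). Genes known to be induced by loading or injury were higher in 10 of 20 (median 0.09). Their lowest p belonged to Atf3 (1.77, SE 0.37, adjusted p = 0.631, and 0.0240 in DESeq2) and Runx1, a transcription factor of denervated muscle (0.67, SE 0.21, adjusted p = 0.665).

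Markers of muscle attachment are given beside the 3 genes whose groups did not overlap, and edgeR called 0 of them, with 3 of 7 junction and 8 of 10 tendon markers at an unadjusted p under 0.05. Of all genes tested, 7.04% had such a p, 3.71% with MERKO higher. Groups were separate with MERKO higher in 6.17% of all genes tested, and DESeq2 called 0.166% of its genes. Of the 7 markers of the myotendinous junction, 6 had a log2 fold change above 0 (median 0.97) and 3 had separate groups, with a summed level of 58.0, 52.4 and 29.8 CPM in MERKO 1 to 3, against 25.3, 20.2 and 25.7 CPM in control 1 to 3. DESeq2 called Col22a1 (adjusted p = 0.00374) and Col24a1 (adjusted p = 0.0110), and edgeR called neither (adjusted p = 0.631 for each). For tendon markers these counts were 9 of 10 (median 2.21) and 3, with a summed level of 468, 242 and 94.1 CPM in MERKO 1 to 3, against 97.0, 36.5 and 79.1 CPM in control 1 to 3. Kera, a proteoglycan gene, was at 14.7 ± 10.8 CPM in MERKO, against 1.69 ± 0.625 CPM in control (a log2 fold change of 3.08, SE 0.61, adjusted p = 0.631 in edgeR and 0.0341 in DESeq2), and Comp, a matrix gene, had a log2 fold change of 3.07, SE 0.75, adjusted p = 0.654. Every MERKO junction sum lay above every control junction sum, but this order depends on Col22a1, the highest junction marker in each library. Col22a1 stood at 25.8, 23.8 and 13.0 CPM in MERKO 1 to 3, against 10.8, 7.34 and 8.27 CPM in control 1 to 3. It was also among the profiles nearest to Ankrd1. Groups were separate for Col22a1, Col24a1 and Clstn2, and overlapped for Adamts20, Maml2, Slc24a2 and Tigd4. The tendon sum of MERKO 3 lay below that of control 1. Every junction and tendon marker had reads in all 6 libraries. The part of attachment tissue in the differences of the 10 genes was not tested.

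Adipocyte markers were lower in 6 of 6 (median -2.24), with a summed level of 14.6, 39.7 and 44.7 CPM in MERKO 1 to 3, against 44.99, 296 and 129.6 CPM in control 1 to 3. The lowest p belonged to the hormone genes Lep (-3.01, SE 0.66, adjusted p = 0.631) and Retn (-2.50, SE 0.71, adjusted p = 0.654). Schwann cell and nerve markers were higher in 5 of 5 (median 0.52), with the lowest p in Ngfr (1.38, SE 0.46, adjusted p = 0.671) and Pmp22 (0.42, SE 0.16, adjusted p = 0.683). Slow-fibre markers were higher in 4 of 8 (median -0.02), with Atp2a2 (0.20, SE 0.68, adjusted p = 0.959) and Tnnc1 (-0.27, SE 1.48, adjusted p = 0.974) lowest in p. Fast-fibre markers were higher in 2 of 10 (median -0.20), with Myl1 (-0.40, SE 0.27, adjusted p = 0.754) and Actn3 (-0.33, SE 0.30, adjusted p = 0.821) lowest in p. Heart markers were higher in 3 of the 4 tested (median 0.86), with Tnnt2 (1.00, SE 0.47, adjusted p = 0.713) and Myl4 (0.71, SE 0.34, adjusted p = 0.713) lowest in p. Muscle genes were higher in 3 of 5 (median 0.31), endothelial markers in 4 of 6 (0.09), smooth muscle and pericyte markers in 5 of 6 (0.19), fibroblast markers in 1 of 5 (-0.07) and satellite cell markers in 1 of 3 (-0.05). The part of these cell types in the differences of the 10 genes was not tested.

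**Figure D5:**
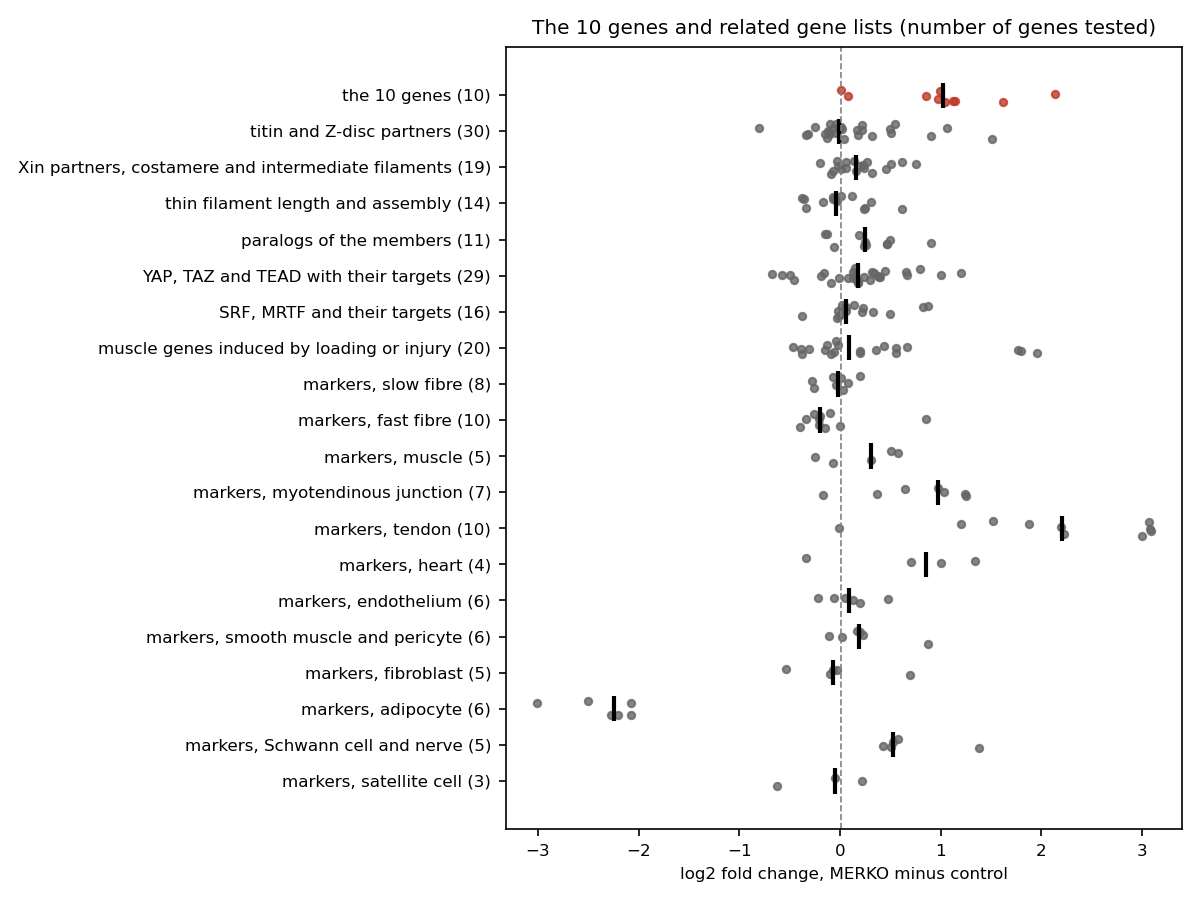
Log2 fold change of MERKO minus control for the 10 genes (red, top) and for each gene tested in the 19 related lists (grey), with the median of each list as a black bar and the median of all genes tested as a dashed line. The medians of the titin, Xin partner, thin-filament, YAP and SRF lists lie between -0.04 and 0.18, that of the 10 genes, which were chosen on this comparison, at 1.02, and those of tendon and adipocyte markers at 2.21 and -2.24.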

How the data were processed

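Raw read counts per gene were deposited by the authors as 1 table with a column for each of the 6 libraries. Tools named in the submitters' processing notes are STAR (2.5.2b), HTSeq (0.9.1) and DESeq, with builds mm10 and GRCm38. What each did, the annotation, whether strand was used and how multiply placed reads were handled: not given in the sources used here. Coordinates and exon lengths are from GENCODE M21 (GRCm38). Genotype was the sole term of an edgeR (4.0.16, R 4.3.3) quasi-likelihood fit to all libraries, after filterByExpr and TMM, with Benjamini-Hochberg adjustment over the 13628 genes tested. Alternatives included DESeq2 1.42.0 and limma-voom (limma 3.58.1). The code was tested on simulated data. Log2 CPM for profiles used a prior count of 2. The 10 genes, the lists and the naming rule (the 10 genes, the 2 genes of lowest p in a list and the 5 profiles nearest to Ankrd1) were chosen with earlier results of these data known, and other genes named were chosen after their values were seen. Because the labels do not say whether libraries are separate animals, p-values measure the spread between libraries. No pair of libraries within a group was alike within sampling noise (chi-square per degree of freedom at least 109.6). Some pairs across the groups had lower values. These were 25.7 for MERKO 2 with control 2, 44.6 for MERKO 3 with control 2, 59.6 for MERKO 1 with control 1 and 65.3 for MERKO 3 with control 1.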

Additional observations from a re-analysis of the deposited data

How the results depend on the processing

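Each fold change of the 10 genes was recomputed under 16 alternatives, giving 160 values, of which 149 kept the sign found with all libraries. Of the 160, 2, both of Csrp3, moved by more than the spread between libraries (to -0.51 without MERKO 1 and 5.25 without control 1). That spread is each gene's own SD of log2 CPM within groups, which was 2.19 for Ankrd2 and 1.57 for Lmod2. Values from -0.68 to 3.14 for Ankrd2 and from -0.25 to 2.38 for Lmod2 thus did not count as moved. The count of 2 is therefore no measure of stability for genes that vary widely. For Ankrd1 the range was 1.41 to 1.81, for Mustn1 0.85 to 1.12 and for Sbk2 0.96 to 1.38. The count of genes called over all genes was 1 with all libraries, 93 without composition factors, which moved the median of all genes to -0.10, 140 without a filter, 23 with DESeq2 and 7 without MERKO 1 and control 1. Leaving out 1 library gave 0 to 11 genes: the lowest came from dropping MERKO 1 or MERKO 2 and the highest from dropping MERKO 3, while dropping control 1 or control 3 gave 2. Of the listed genes outside the 10, 0 were called with all libraries, 17 without composition factors, 19 without a filter, 4 with DESeq2, 1 without MERKO 1 and control 1, and 0 to 2 without 1 library. Of the 10, 3 had no overlap (13.3% of all genes tested), 2 without composition factors (3.87%), 6 without MERKO 1 and control 1 (38.1%) and 3 to 6 without 1 library (20.5% to 25.8%), with 6 without control 1 (25.8%).

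Same-numbered libraries deviated from their group means with correlations of 0.45, 0.16 and 0.06, and MERKO 2 and MERKO 3 correlated best with another number, so the numbers were not taken as pairs. By chi-square per degree of freedom, MERKO 1 and MERKO 2 were nearest to the control of the same number, and MERKO 3 to control 2. With a replicate block, 51 of the 13628 genes tested were called. Of these, 7 were among the 10 genes and 10 among the other listed genes. The log2 fold changes were then 1.12 (SE 0.28) for Ankrd2, 2.25 (SE 0.24) for Csrp3 and 1.06 (SE 0.097) for Lmod2. These smaller errors hold only if the numbers are pairs. Csrp3 had 1 read in control 2, so its level there is set by counting error; without that library its value was 1.65.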
